A study of Mus musculus with 6 samples.

Results

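The genes described here are 37 genes of the Fas pathway, the death receptors and the apoptosis machinery, taken by symbol from a count table of 57180 mouse genes. All 37 have a row in the table, and 23 of them had enough counts to be tested. RNA came from cells isolated from calvaria, the flat bones of the skull roof, and differentiated in medium that held ascorbate and β-glycerophosphate. The 3 wt libraries are from C57BL/6 cells. The 3 gld libraries, which the labels call FasL KO, are from cells of the strain B6Smn.C3-Faslgld/J, which carry the gld point mutation on both copies of Fasl in every cell of the animal. Cells of both genotypes grew in parallel. The design text also describes gld cells given 150 ng/ml recombinant human soluble Fas ligand from day 14 of differentiation for 72 h, and such cells are not analysed here. The labels give neither the harvest day of each library nor the age or number of the animals, and nothing says that the libraries of a group come from separate animals. The p-values here therefore rest on a spread between libraries that may be technical only.

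Fas ligand is a membrane protein that binds the death receptor Fas. Bound Fas recruits the adaptor FADD and caspase-8, which cuts executioner caspases directly or cuts BID, which then acts with BAX and BAK on mitochondria to release cytochrome c. Proteins of the BCL2 family, c-FLIP (the product of Cflar) and the inhibitors of apoptosis hold this chain in check. The gld mutation exchanges an amino acid in the extracellular part of Fas ligand so that it no longer triggers Fas. In bone the Fas system is known for the killing of osteoclasts and osteoblasts, and Fas ligand itself is best known from activated T cells and natural killer cells.

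Libraries held 2011173 to 3105322 counts in wt and 4048258 to 5245546 in gld. Across all 8692 genes tested, 847 were higher and 668 lower in gld at an adjusted p under 0.05 in edgeR's quasi-likelihood test, and with libraries scaled by size alone, in place of the trimmed mean of M-values (TMM), these were 720 and 975. Calvarial cultures hold more than 1 cell type. Levels are given as CPM, a gene's counts scaled by the TMM-adjusted total of its library. The 24 markers of macrophages and osteoclasts summed to 422 to 614 CPM in the wt libraries and 3071 to 7424 in the gld libraries. Most of the mean wt sum of 493 CPM came from Cd14 (272) and Ctsk (171), and most of the mean gld sum of 4980 from Lyz2 (3208). C1qc and Marco had no count in wt. Of these markers 14 were tested, and 13 were called higher and 1, Cd14, lower. Another 7 were at 0 (Csf1r, Adgre1, Tyrobp, Fcer1g, Cd163, Ctss and Acp5). The 13 osteoblast markers summed to 16688 to 24428 CPM in wt and 62759 to 69346 in gld, with 8 tested, 6 higher and 1 lower. Most of the mean sums of 19592 CPM in wt and 65003 in gld came from 2 collagen genes. These were Col1a1 (7562 in wt and 26909 in gld) and Col1a2 (11234 and 36044). The lower marker was Alpl, with means of 220 CPM in wt and 47.8 in gld, and Runx2 was tested and not called. In such bulk samples fewer cells of a type and less RNA per cell cannot be told apart.

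Among the 23 tested members, 5 were called, 3 lower and 2 higher in gld. That is 21.7% of the members tested, beside 17.4% of all genes tested (9.74% higher and 7.69% lower), so the share of calls among the members lies near the background. Groups did not overlap for 11 members (47.8%), beside 33.3% of all genes. The median log2 fold change, gld minus wt, was 0.19 over the tested members and 0.02 over all tested genes. The members that fell were the receptor genes Tnfrsf10b and Tnfrsf1b and the caspase-8 brake Cflar, and those that rose were Dap and the survival gene Mcl1. The plot of log2 fold changes by role shows all 23.

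**Figure D1:**
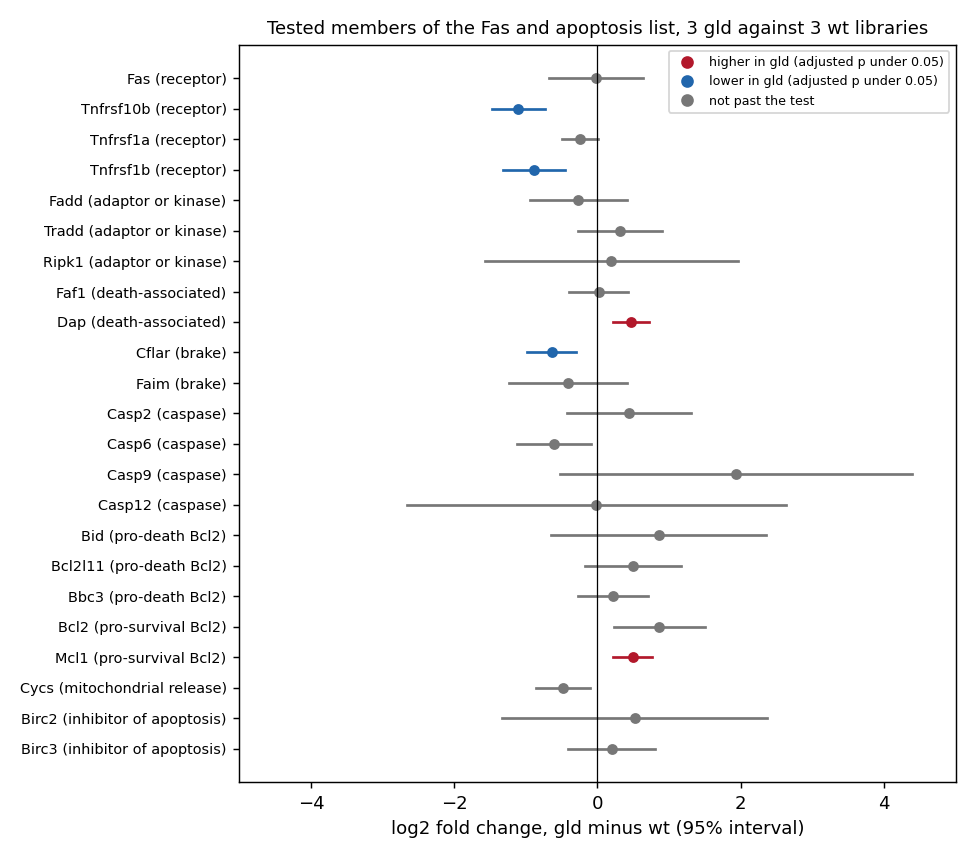
The log2 fold change (gld minus wt, horizontal axis) of the 23 tested members, with its 95% interval, ordered by role. Tnfrsf10b, Tnfrsf1b and Cflar lie below 0 and Dap and Mcl1 above it in colour; the widest intervals belong to Casp9 and Casp12, genes of few counts.

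Counts in this table differed with the annotation of a gene's end, which bears on the members at 0. The libraries were made by QuantSeq, which counts a tag near the 3′ end of each mRNA. For each gene, the final 300 exonic bases of the principal GENCODE M21 transcript were compared with the gene's remaining transcripts. An end was called single where 99% or more of those bases belonged to just 1 of them, and otherwise shared. For the 22 members with a single end the median sum over all libraries was 916 counts, and only Fasl and Traf2, 2 members, summed to under 30. For the 15 with a shared end the median was 9 counts, and 9 members summed to under 30. Over all protein-coding genes 51.5% of those with a single end and 79.1% of those with a shared end had under 30 counts. The members with a shared end include both executors of mitochondrial permeabilization, Bax and Bak1, as well as Bcl2l1, Bad, Pmaip1, Apaf1, Diablo and Xiap. The plot of summed counts by the kind of 3′ end shows this for every member.

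**Figure D2:**
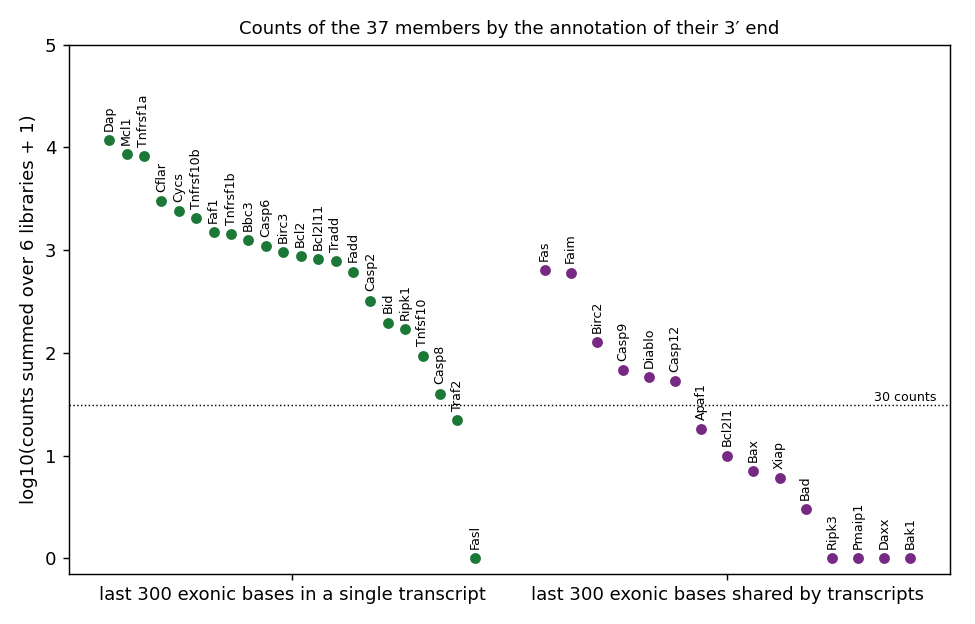
Counts summed over the 6 libraries, as log10(count + 1), for each of the 37 members, split by a single (22 members) or shared (15 members) 3′ end. Fas and Faim lead the shared group with 641 and 601 counts, and 4 of its members lie at 0; in the single group only Fasl lies at 0.

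A total of 5 members were listed at 0 in all 6 libraries: Fasl, the kinase gene of necroptosis Ripk3, Daxx, the BH3-only gene Pmaip1 (Noxa) and Bak1. All but Fasl have a shared end, and no upper limit is given for them. For Fasl (ENSMUSG00000000817, GRCm38 chromosome 1, 161780689 to 161788495, minus strand) the counting error of 0 counts allows up to 0.348 CPM over the wt libraries and 0.235 CPM over the gld libraries. These limits cover counting error only, and a single end does not ensure that a gene is counted. Csf1r, a macrophage marker with a single end, was at 0 in all 6 libraries. C1qc, another such marker with a single end, stood at 92.2, 169 and 292 CPM in gld. Because gld is a point mutation, the level of Fasl checks neither genotype label. Of 17 T and NK cell markers, cells that make Fas ligand, 13 were at 0, among them Cd3d, Cd3e, Cd4, Prf1 and Klrb1c, which have a single end; the others at 0 have a shared end. The 17 markers summed to 23.8 to 60.0 CPM in wt and 0.204 to 2.88 in gld. Most of that sum was Trbc2, a constant segment of the T cell receptor β chain and the only marker tested, which had 85, 76 and 188 counts in wt, against 0, 6 and 0 in gld, and was called lower (edgeR adjusted p = 4.84e-05). Another 9 members had 2 to 93 counts in sum and were too low to test: Tnfsf10, Traf2, Casp8, Bax, Bad, Bcl2l1, Apaf1, Diablo and Xiap. Casp8, which encodes the initiator caspase of the Fas pathway, had 0, 10 and 8 counts in wt, against 12, 9 and 0 in gld. Without the filter on low counts the log2 difference of Casp8 was −0.08 ± 1.63 (SE, edgeR adjusted p = 0.986), too uncertain to give a direction. The counts of Traf2, an adaptor of TNF receptors, came from 1 wt library and 1 gld library, with 19 counts in wt 3 and 2 in gld 2. Apaf1, the scaffold of the apoptosome, had 7 counts in wt and 10 in gld, Xiap, an inhibitor of caspases, 2 and 3, and the BH3-only gene Bad 2 and 0.

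Tnfsf10, which encodes TRAIL, the ligand of the receptor encoded by Tnfrsf10b, had 0, 2 and 0 counts in wt, against 33, 9 and 49 in gld. The groups did not overlap, although gld 2 stayed close to the highest wt library. The pooled level was 30.7 times as high in gld (95% exact counting interval 8.25 to 257, counting error only). Both wt counts were in wt 2, and without that library Tnfsf10 was at least 12.9-fold higher, against a floor of 3 counts over the other 2 wt libraries. Tnfsf10 did not pass the filter on low counts. Without that filter its edgeR adjusted p was 0.0155, and it was 0.0207 with wt 2 left out and 0.0262 with gld 2 left out. With wt 1 or wt 3 left out it was 0.0735 and 0.0816 (edgeR), and under the other alternatives it did not pass the filter. Beside Tnfsf10, the macrophage markers summed to 3071, 4444 and 7424 CPM in gld 1, 2 and 3, and their part in the result was not tested. Diablo, whose product leaves mitochondria and blocks inhibitors of apoptosis, had 0, 0 and 3 counts in wt, against 20, 24 and 10 in gld, without overlap. Its pooled ratio was 12.1 (95% exact counting interval 3.94 to 60.7), and the edgeR adjusted p was 0.211 without the filter on low counts and 0.0754 to 0.275 where leaving out a library let it pass the filter. All 3 wt counts of Diablo were in wt 3, and without that library it was at least 7.51-fold higher, against the same floor.

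The receptor Fas itself (ENSMUSG00000024778, chromosome 19, 34290666 to 34327772) had 36.4, 34.8 and 20.7 CPM in wt, against 33.1, 26.1 and 30.5 in gld. The groups overlapped fully, and wt 3 was the lowest of the 6 libraries. Fas has a shared end, and how much of its mRNA was counted is not known. The log2 fold change of Fas had a 95% interval from −0.68 to 0.63, so changes inside these bounds, in either direction, were not detectable with these libraries.

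Tnfrsf10b (ENSMUSG00000022074, chromosome 14, 69767472 to 69784411, plus strand), the only TRAIL receptor with a death domain in mice, stood at 149.7, 153 and 122 CPM in wt, against 66.5, 65.4 and 65.6 in gld. The 3 gld libraries were almost level, and each lay well below the lowest wt library. Its mean went from 142 ± 16.8 to 65.8 ± 0.60 CPM (SD, n = 3). Tnfrsf10b fell by 1.10 ± 0.17 (SE) on the log2 scale, with an edgeR adjusted p = 0.000313, and was called in each of the 13 alternatives run (adjusted p 2.08e-07 to 0.00234). Its ligand gene Tnfsf10 had 2 counts in wt and 91 in gld.

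The TNF receptors are the other death receptor system on the list. Tnfrsf1b (ENSMUSG00000028599, chromosome 4, 145213463 to 145246870, minus strand) encodes TNFR2, which lacks a death domain and signals through TRAF proteins. It stood at 98.0, 102 and 78.0 CPM in wt, against 52.1, 53.9 and 44.6 in gld, without overlap. Tnfrsf1b fell by 0.88 ± 0.20 (SE) on the log2 scale, from 92.7 ± 12.9 to 50.2 ± 4.94 CPM (SD, n = 3, edgeR adjusted p = 0.00624), and was called in each of the 13 alternatives. Tnfrsf1a, which encodes TNFR1, the TNF receptor with a death domain, stood at 457, 405 and 418 CPM in wt, against 348, 347 and 384 in gld. Its groups did not overlap either, but the log2 difference was −0.25 ± 0.12 (SE), with a 95% interval from −0.50 to 0.01 and an edgeR adjusted p = 0.195. Whether the 2 TNF receptor genes differ in their change was not tested.

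**Figure D3:**
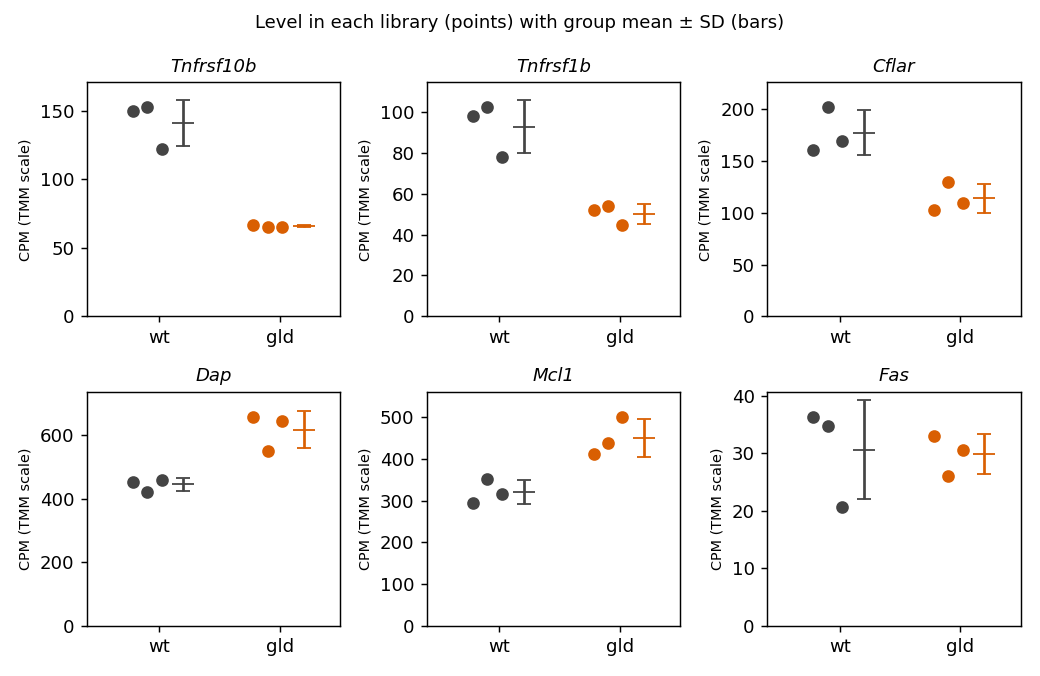
Level in each library (points, CPM on the TMM scale, axes from 0) and group mean ± SD (bars, n = 3) for the 5 called members and for Fas. Tnfrsf10b, Tnfrsf1b and Cflar are lower and Dap and Mcl1 higher in every gld library than in any wt library, while the points of Fas overlap.

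Adaptors and kinases of the receptor complexes gave no call. Fadd, the adaptor of Fas, was at 31.6 ± 4.65 CPM in wt, against 26.3 ± 7.90 in gld (SD, n = 3). Tradd, the adaptor of TNFR1, was at 31.7 ± 7.28 and 39.5 ± 4.12 CPM. Ripk1, the kinase that joins TNFR1 to survival or death signals, had 2, 25 and 37 counts in wt, against 29, 9 and 67 in gld, with a 95% interval of the log2 difference from −1.57 to 1.96. The edgeR adjusted p of these 3 genes lay between 0.539 and 0.930. Of the other death-associated proteins, Faf1, which encodes a Fas-binding factor, was at 69.1 ± 1.54 and 69.9 ± 7.04 CPM, with a 95% interval of the log2 difference from −0.39 to 0.43.

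Dap (ENSMUSG00000039168, chromosome 15, 31224314 to 31274341, plus strand), first described as a mediator of cell death under interferon γ, stood at 453, 422 and 458 CPM in wt, against 657, 549.9 and 643 in gld. Every gld library was above every wt library. Dap rose by 0.47 ± 0.12 (SE) on the log2 scale (edgeR adjusted p = 0.00983). Leaving out gld 1 or gld 3 ended the call (edgeR adjusted p = 0.0749 and 0.0516), as did scaling by library size alone (0.0868).

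Cflar (ENSMUSG00000026031, chromosome 1, 58711508 to 58758884, plus strand) encodes c-FLIP, a relative of caspase-8 without its protease activity that competes for FADD. It stood at 161, 202 and 169.7 CPM in wt, against 102, 129.7 and 109.7 in gld, without overlap. Cflar fell by 0.64 ± 0.16 (SE) on the log2 scale, from 178 ± 21.6 to 114 ± 14.2 CPM (SD, n = 3, edgeR adjusted p = 0.0115). Without wt 2, the highest library, the adjusted p was 0.0553. The count is given per gene, and which of the 13 annotated transcripts it covers is not known. Long and short c-FLIP forms are therefore not told apart. Cflar, Casp8 and Bcl2 lie on chromosome 1 like Fasl, at 103, 103 and 55.1 Mb from it. Faim, which encodes an inhibitor of Fas-induced death, gave 37.8, 31.7 and 28.3 CPM in wt, against 13.8, 18.8 and 40.3 in gld. Its gld 1 and gld 2 were below all wt libraries and gld 3 above them (edgeR adjusted p = 0.569).

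No caspase gene was called, with 4 of 5 tested. Casp6, which encodes an executioner caspase, came closest. It stood at 67.6, 48.9 and 78.9 CPM in wt, against 45.0, 46.8 and 36.6 in gld, without overlap, with a log2 difference of −0.61 ± 0.24 (SE, edgeR adjusted p = 0.111). Casp2, an initiator that responds to cell stress, did not overlap either, at 12.3 ± 0.97 and 16.7 ± 2.73 CPM (SD, n = 3, edgeR adjusted p = 0.561). Casp9, the caspase of the apoptosome, had 3, 0 and 7 counts in wt, against 20, 21 and 16 in gld, and the 95% interval of its log2 difference ran from −0.53 to 4.39. Casp12, a caspase of the endoplasmic reticulum, had 1, 12 and 10 counts in wt, against 11, 18 and 0 in gld.

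Of the 3 survival genes of the BCL2 family 2 were tested and 1 rose. Mcl1 (ENSMUSG00000038612, chromosome 3, 95658788 to 95663176, plus strand), which encodes a short-lived guard of the mitochondrial membrane, stood at 296, 352 and 316 CPM in wt, against 413, 438 and 502 in gld. Each gld library was above each wt library. Mcl1 rose by 0.49 ± 0.13 (SE) on the log2 scale, from 321 ± 28.4 to 451 ± 45.4 CPM (SD, n = 3, edgeR adjusted p = 0.0136). Leaving out wt 1, wt 3 or gld 3 ended the call (edgeR adjusted p = 0.0741, 0.0628 and 0.0723), as did scaling by library size alone (0.0765). Bcl2, the founding survival gene of the family, stood at 25.7, 32.0 and 24.7 CPM in wt, against 68.0, 35.0 and 47.2 in gld, without overlap but with gld 2 near the wt range. Its log2 difference was 0.87 ± 0.29 (SE) with an edgeR adjusted p = 0.0577, which was 0.0342 without gld 2, 0.0361 without the filter on low counts and 0.0414 with a stricter filter. Bcl2l1, which encodes BCL-XL and has a shared end, had 9 counts, all in gld 2.

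The pro-death genes of the family gave no call. Bcl2l11, which encodes BIM, had 46.2, 26.0 and 22.2 CPM in wt, against 50.7, 47.3 and 34.2 in gld, where wt 1 lay among the gld libraries (edgeR adjusted p = 0.35). Bbc3, which encodes PUMA, a p53 target, was at 53.7 ± 3.32 and 62.3 ± 13.4 CPM (SD, n = 3, edgeR adjusted p = 0.626). Bid, the link from caspase-8 to mitochondria, had 3, 24 and 29 counts in wt, against 72, 19 and 49 in gld (edgeR adjusted p = 0.507). The end of Bid lies over an exon of Bcl2l13 on the other strand, and without a stated strand setting reads of the pair cannot be told apart. Bax had 0, 1 and 5 counts in wt and none in gld.

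Downstream of mitochondria, Cycs, the cytochrome c gene, stood at 138, 117 and 146 CPM in wt, against 96.6, 82.1 and 109.3 in gld. Its groups did not overlap, and the log2 difference was −0.47 ± 0.18 (SE) with an edgeR adjusted p = 0.0839. Cycs has processed copies in the genome, and reads that match several places could be lost from it. With scaling by library size alone Cycs, Casp6 and Tnfrsf1a passed the threshold (edgeR adjusted p = 0.021, 0.0414 and 0.0282). Of the inhibitors of apoptosis, Birc3 was at 40.3 ± 9.18 and 46.3 ± 12.8 CPM and Birc2 at 4.68 ± 3.26 and 6.86 ± 5.71 CPM (SD, n = 3), with overlapping groups and an edgeR adjusted p of 0.741 and 0.781. Both ubiquitin ligases act on RIPK1 in the TNFR1 complex. Over the 18 members that were tested and not called, the 95% interval reached a 2-fold change in 10 and stayed inside it in 8.

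The stretch of 250 bases before the start annotated by RefSeq is shown for 4 of the 5 called members, because these genes carry the calls. These 4 have an entry in RefSeq's GRCm38.p6 promoter table. RefSeq's start can differ from the GENCODE position given above. In Dap the matches at −56 and −19 lie inside the gene as GENCODE places it. Tnfrsf10b has no entry. Sequences run 5′ to 3′ on the gene's strand, and capitals mark GGGCGG or its reverse complement, the core that Sp1 binds.
Tnfrsf1b: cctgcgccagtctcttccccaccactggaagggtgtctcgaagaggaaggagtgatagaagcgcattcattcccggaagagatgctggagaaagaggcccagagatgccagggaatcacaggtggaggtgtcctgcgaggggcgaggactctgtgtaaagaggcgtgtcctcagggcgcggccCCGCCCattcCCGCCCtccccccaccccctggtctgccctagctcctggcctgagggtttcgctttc
Cflar: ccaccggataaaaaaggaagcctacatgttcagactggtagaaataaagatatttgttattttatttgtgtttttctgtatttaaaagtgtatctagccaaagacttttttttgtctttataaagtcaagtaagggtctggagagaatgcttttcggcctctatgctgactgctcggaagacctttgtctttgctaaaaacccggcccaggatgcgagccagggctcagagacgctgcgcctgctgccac
Dap: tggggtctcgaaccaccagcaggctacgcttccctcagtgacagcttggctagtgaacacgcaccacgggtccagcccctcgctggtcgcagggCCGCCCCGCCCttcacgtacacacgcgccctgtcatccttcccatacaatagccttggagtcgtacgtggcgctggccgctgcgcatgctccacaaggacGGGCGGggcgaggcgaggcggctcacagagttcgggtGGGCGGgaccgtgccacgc
Mcl1: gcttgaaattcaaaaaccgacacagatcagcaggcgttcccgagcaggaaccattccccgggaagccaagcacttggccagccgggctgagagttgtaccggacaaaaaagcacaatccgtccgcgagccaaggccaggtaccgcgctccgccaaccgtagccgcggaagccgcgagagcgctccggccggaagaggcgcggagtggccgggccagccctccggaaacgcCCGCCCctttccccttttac
These are chr4:145246871-145247120 (minus strand), chr1:58711241-58711490, chr15:31224135-31224384 and chr3:95658471-95658720 (plus strand). The search covered both strands for GGGCGG, the AP-1 motif TGANTCA, the NF-kB motif and the p53 half-site, and in these 4 stretches only GGGCGG was matched. It begins at −67 and −57 in Tnfrsf1b, at −156, −151, −56 and −19 in Dap and at −20 in Mcl1, counted back from the start, and the pair at −156 and −151 overlaps by 1 base. Cflar holds none of the 4 motifs, and its stretch is 42.8% G and C, against 62.8% in Tnfrsf1b, 67.6% in Dap and 64.4% in Mcl1. GGGCGG was in 32.7% of all 32851 stretches of this length in the table, TGANTCA in 6.75%, the NF-kB motif in 7.25% and the p53 half-site in 7.13%. The 34 members with an entry have 46 stretches, so their counts per gene cannot be set against these shares per stretch. Of these members 24 held GGGCGG in at least 1 stretch, and Fas alone held TGANTCA. Bbc3 and Bcl2l1 held the NF-kB motif, and Bax and Fasl held the p53 half-site. A match of letters is a description of the sequence, not a site in use.

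Genes around the pathway were read from 4 further lists. Their counts of calls stand beside 17.4% of all tested genes called (9.74% higher and 7.69% lower). The list of p53 and stress-induced death genes had 17 of 30 tested, with 3 higher, 5 lower and 9 not past the test, and a median log2 fold change of −0.16. Cyclin G1 (Ccng1), a p53 target, stood at 513, 516 and 634 CPM in wt, against 269, 266 and 243 in gld. Zmat3, a p53-induced RNA-binding protein, went from 336 ± 16.7 to 185 ± 10.3 CPM, and Phlda3, a p53-induced inhibitor of AKT, from 314 ± 31.0 to 178 ± 16.2 CPM (SD, n = 3). These 3 genes fell by 1.09 ± 0.13, 0.86 ± 0.12 and 0.82 ± 0.14 (SE) in log2 units, with edgeR adjusted p = 2.07e-05, 0.000167 and 0.000558. In the other direction Gadd45a, a growth arrest gene that p53 and other stress signals induce, stood at 31.7, 35.1 and 32.3 CPM in wt, against 103, 100.1 and 89.6 in gld and rose by 1.56 ± 0.20 (SE, edgeR adjusted p = 5.58e-05). The remaining calls of the list were Perp (−2.25) and Plk2 (−0.65), also p53 targets, and Gadd45g (0.88) and Dapk2 (4.42), on the log2 scale. They were picked out after their values were seen. Trp53, Mdm2 and Cdkn1a have shared ends and 49, 18 and 32 counts over the 6 libraries, and none of the 3 was tested.

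Of the other TNF and TNF receptor family genes, 12 of 25 were tested, with 2 higher, 4 lower and 6 not past the test, and a median log2 fold change of −0.33. Tnfrsf21, which encodes the death-domain receptor DR6, stood at 536, 696 and 589.9 CPM in wt, against 165, 158 and 153 in gld and fell by 1.93 ± 0.13 (SE, edgeR adjusted p = 1.13e-07). Eda2r, a receptor for ectodysplasin A2, stood at 60.6, 97.2 and 57.0 CPM in wt, against 19.8, 13.3 and 17.5 in gld and fell by 2.08 ± 0.29 (SE, edgeR adjusted p = 0.000111). Ngfr, the p75 neurotrophin receptor, which also has a death domain, had 0, 10 and 0 counts in wt, against 74, 105 and 178 in gld. Edar, the ectodysplasin A1 receptor and another with a death domain, had 0, 6 and 0 counts in wt, against 75, 44 and 61 in gld. Both rose (edgeR adjusted p = 0.00131 and 0.00584), by 4.56 ± 0.84 and 4.33 ± 0.98 (SE) on the log2 scale. Their size rests on wt 2, the only wt library with a count of either gene. Without it Ngfr was at least 50.5-fold and Edar at least 25.5-fold higher, against a floor of 3 counts over the other 2 wt libraries. Tnfrsf12a (−1.48) and Tnfsf11 (−0.64), which encodes RANKL, the cytokine that drives osteoclast formation, were the remaining calls, picked out after their values were seen.

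**Figure D4:**
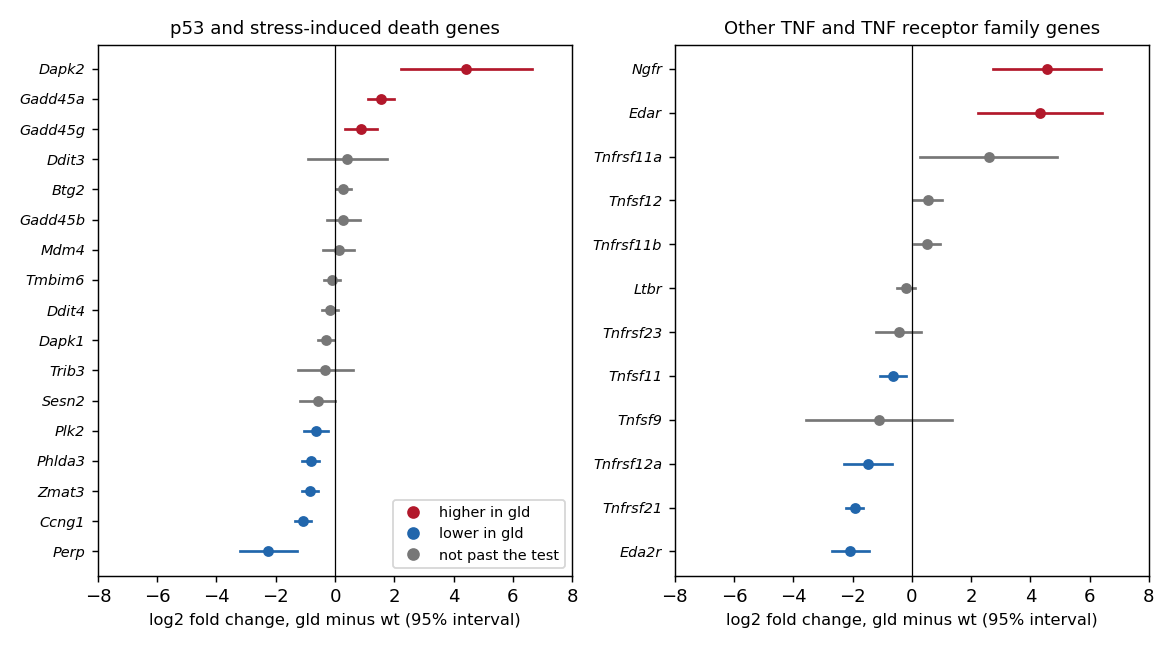
The log2 fold change (gld minus wt, horizontal axis) with its 95% interval for the tested genes of the list of p53 and stress-induced death genes (17, left) and of the list of other TNF and TNF receptor family genes (12, right), each ordered by size. In colour are genes past an adjusted p of 0.05, 3 higher and 5 lower on the left and 2 higher and 4 lower on the right.

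The list of receptor complex and NF-kB control genes had 15 of 37 tested and 1 call. Nfkbia, which encodes the NF-kB inhibitor IκBα, stood at 923, 896 and 939 CPM in wt, against 1169, 1168 and 1534 in gld and rose by 0.49 ± 0.12 (SE, edgeR adjusted p = 0.00918). That call was lost without gld 3 (adjusted p = 0.065) and with scaling by library size alone (0.0672). The median log2 fold change of the list was −0.06.

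Of the other caspases and BCL2 family genes, 15 of 32 were tested, with 3 higher and 12 not past the test, and a median log2 fold change of 0.48. The 3 were Bcl2a1a, Bcl2a1b and Bcl2a1d, near-identical copies of a survival gene known from leukocytes, between which the counting could split reads. They had no count in wt and 17, 41 and 112 (Bcl2a1a), 45, 57 and 147 (Bcl2a1b) and 44, 46 and 125 counts (Bcl2a1d) in gld 1, 2 and 3. Against a floor of 3 counts over the wt libraries they were at least 38.2-fold, 55.9-fold and 48.3-fold higher (edgeR adjusted p = 0.00107, 0.000116 and 0.000183). With 1 library left out, the lowest bounds were 21.2-fold (without gld 3), 34.6-fold and 29.9-fold (both without wt 3). The macrophage markers were lowest in gld 1 and highest in gld 3 as well, at 3071, 4444 and 7424 CPM, and their part in this result was not tested.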

How the data were processed

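Per the labels, total RNA of 6 samples was made into QuantSeq 3′ FWD libraries. The authors deposited 1 table of whole-number read counts per gene, not normalized. Per the series' design text reads were trimmed with Cutadapt and aligned with STAR; the submitters' processing notes add Trim Galore, DESeq2, FastQC and the build mm10. Which program counted the reads, against which annotation and with which strand setting, is not stated in these sources. The table has 1 row without an identifier, which holds 0 counts and was left out, and 0 columns were unused. Symbols and positions came from GENCODE M21 (GRCm38) for 51883 of 57180 rows.

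Genes were kept by filterByExpr (about 10 counts, scaled for library size, in any 3 libraries and 15 in total). Counts were scaled by TMM and tested in R 4.3.3 over all 6 libraries by the quasi-likelihood test of edgeR 4.0.16, without covariates. Benjamini-Hochberg adjustment was over all 8692 genes, with a threshold of 0.05. The SE is the absolute log2 fold change over the square root of F, and 95% intervals use the t distribution with the test's degrees of freedom. Levels are CPM on the TMM scale. The labels mention no molecular identifiers, so floors of 3 counts and counting intervals cover counting error only. The test was also run on simulated counts. Alternatives were DESeq2 1.42.0, limma-voom (limma 3.58.1), 2 other scalings, 2 other filters, the replicate number as a block and each library left out in turn. Named genes are all 37 members and, from each of 4 further lists, up to 4 called genes by adjusted p. No pair of libraries in a group agreed within sampling noise (chi-square per degree of freedom 6.44 to 15.0). The members, the lists and the split by 3′ end were chosen with earlier results of these data known.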

Additional observations from a re-analysis of the deposited data

How the results depend on the processing

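Counts of all called genes and of called members stayed within 1.5 times their value under DESeq2, limma-voom, RLE scaling, the stricter filter and the replicate block, and the 5 called members kept their calls in these. Scaling by library size alone shifted the all-gene median on the log2 scale from 0.02 to −0.14, and 0 members were called higher and 6 lower: Dap and Mcl1 were lost and Tnfrsf1a, Casp6 and Cycs gained. Relative to the all-gene median of each scaling, Dap stood at 0.46 and Mcl1 at 0.47 under both. A change of scaling moves all genes by nearly the same amount, so this agreement was fixed in advance and lends neither call support. Without the filter on low counts 4 members were higher, with Tnfsf10 and Bcl2 gained. With 1 library left out, 3 to 7 members were called, 0 to 4 higher and 2 to 3 lower, where all 6 libraries gave 5, 2 and 3; the fewest came without gld 3 and the most without gld 2. Among members without a call the sign turned for Fas (0.0461 in limma-voom, 0.0023 with the replicate block, −0.25 to 0.11 with 1 library left out), Faf1 (−0.14 with library size scaling, −0.0896 to 0.0403), Casp12 (0.0076 in DESeq2, 0.015 without the filter, −0.88 to 0.57), Ripk1 (−0.52 to 0.78) and Birc2 (−0.36 to 1.13). The cause of these changes was not tested. Wt and gld libraries share the numbers 1 to 3 in the labels. The deviations of same-numbered libraries from their group means correlated at −0.02 each. With 3 libraries per group this cannot decide whether same-numbered libraries share a culture or a batch. With the replicate block edgeR called 1359 genes, against 1515 without it, and the same 5 members. No direction is given for the members under 30 counts, 9 with a shared end and 2 with a single end. Why their counts are low was not tested.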
